A study of Mus musculus with 6 samples.

Results

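The CD48- HSC2 cells are 86 of the 497 single cells of the series, and all of them come from 1 library, sorted from mouse bone marrow as CD48- CD201+ HSC2 and CD48- CD201- HSC2. Every cell of that library was taken, with no filter, no clustering and no doublet call. The files do not say which of the 86 cells came from which of the 2 gates, so the gates are described together. HSC2, HSC1, HPC1, MPP2 and MPP4 are the names the labels use for sorted fractions of hematopoietic stem and progenitor cells, and the surface markers behind those names, other than CD48 and CD201, were not given in the sources used here.

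All mice were C57BL/6, and no treatment is named for any group. CD48- HSC2 cells came from 8-week-old mice and were labelled as total RNA, as was the library set beside them most closely, a mix of CD48+ HSC2 and MPP4 from bone marrow (89 cells, here called HSC2/MPP4). The 4 earlier libraries were labelled as polyA RNA from mice of 8 to 10 weeks. They were a double-negative library of CD201- CD48- HSC1 and HPC1 from bone marrow (76 cells), an HSC1 library of CD201+ CD48- and CD48+ cells (84 cells), an HPC1 library gated the same way (82 cells) and an MPP2-containing library from bone marrow, sorted as MPP2, as CD48+ cells of HSC1 and of HPC1, and as CD201- CD48- HPC1 (80 cells). The tissue label of the HSC1 and HPC1 libraries is spleen, whereas the series title speaks of bone marrow. Each group is 1 library, the sources used here do not give the number of animals behind it, and no statistical test between groups was possible. Against the 4 earlier libraries, the sorted population and the separate deposit with its other RNA label and lower depth cannot be told apart. HSC2/MPP4 is the comparison within the same deposit.

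Hematopoietic stem cells are rare, mostly quiescent marrow cells that renew themselves and give rise to all blood lineages. CD201, the endothelial protein C receptor encoded by Procr, marks cells enriched for long-term stem cell activity. CD48 is a SLAM-family surface protein that appears as stem cells become progenitors, and FLT3 is a receptor tyrosine kinase of multipotent and lymphoid-primed progenitors. MPP2 and MPP4 are names commonly used for multipotent progenitors biased to megakaryocyte and erythroid or to lymphoid fates.

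The CD48- HSC2 library was the shallowest, with 2778858 counts in all and 2386 to 191041 counts in a cell (median 23540). The other libraries had medians of 35977 to 145496 counts per cell. The 9 deepest CD48- HSC2 cells held 34.6% of the counts. Mitochondrial transcripts made up 1.25% of counts in CD48- HSC2 and 1.12% to 1.44% in the other libraries. Levels below are counts per 1000000 counts (CPM), pooled over a library's cells, with exact 95% Poisson intervals. Shares of cells were taken after each cell was thinned to 10000 counts, which kept 66 of the 86 CD48- HSC2 cells and 75 to 81 cells of each other library, and carry exact (Clopper-Pearson) 95% intervals. Both intervals address counting error only and leave out the spread between cells and animals. The reads carried no molecular identifiers, so the Poisson intervals can be too narrow even for counting error. A ratio is log2 of (CPM in CD48- HSC2 + 10) over (CPM in the other library + 10), which understates changes of low genes, and a gene was called when it differed at least 2-fold on that scale.

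The sorted proteins were first checked in their transcripts. Cd48 stood at 9.36 CPM (interval 6.11 to 13.7) in CD48- HSC2, against 1.62 in double-negative, 81.4 in HSC1, 33.9 in HPC1, 121.6 in MPP2-containing and 173.0 CPM (160.3 to 186.6) in HSC2/MPP4. Of the 26 Cd48 counts in CD48- HSC2, 61.5% came from 1 cell, and without that cell the level was 3.86 CPM. After thinning, Cd48 was counted in 3 of 66 CD48- HSC2 cells (4.55%, 0.947% to 12.7%) and in 49 of 81 HSC2/MPP4 cells (60.5%, 49.0% to 71.2%). The 2 libraries sorted without CD48+ cells were thus the lowest in Cd48. Procr, on chromosome 2 (155751117 to 155755471, plus strand, GRCm38), stood at 115.2 CPM (102.9 to 128.5) in CD48- HSC2, 23.9 in double-negative, 133.3 in HSC1, 71.6 in HPC1, 16.4 in MPP2-containing and 17.8 CPM in HSC2/MPP4. Only HSC1, which also holds CD201+ cells, was higher, and the 3 libraries without a CD201+ CD48- gate lay at least 2-fold below CD48- HSC2 (log2 ratios 1.89, 2.25 and 2.17). Procr was counted in 47 of all 86 CD48- HSC2 cells (54.7%) and in 28 of the 66 thinned ones (42.4%, 30.3% to 55.2%). None of the 28 thinned cells with Procr had a Cd48 count. With Cd48 counted in only 3 of the 66 cells, this cannot show whether the 2 genes exclude each other.

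**Figure D1:**
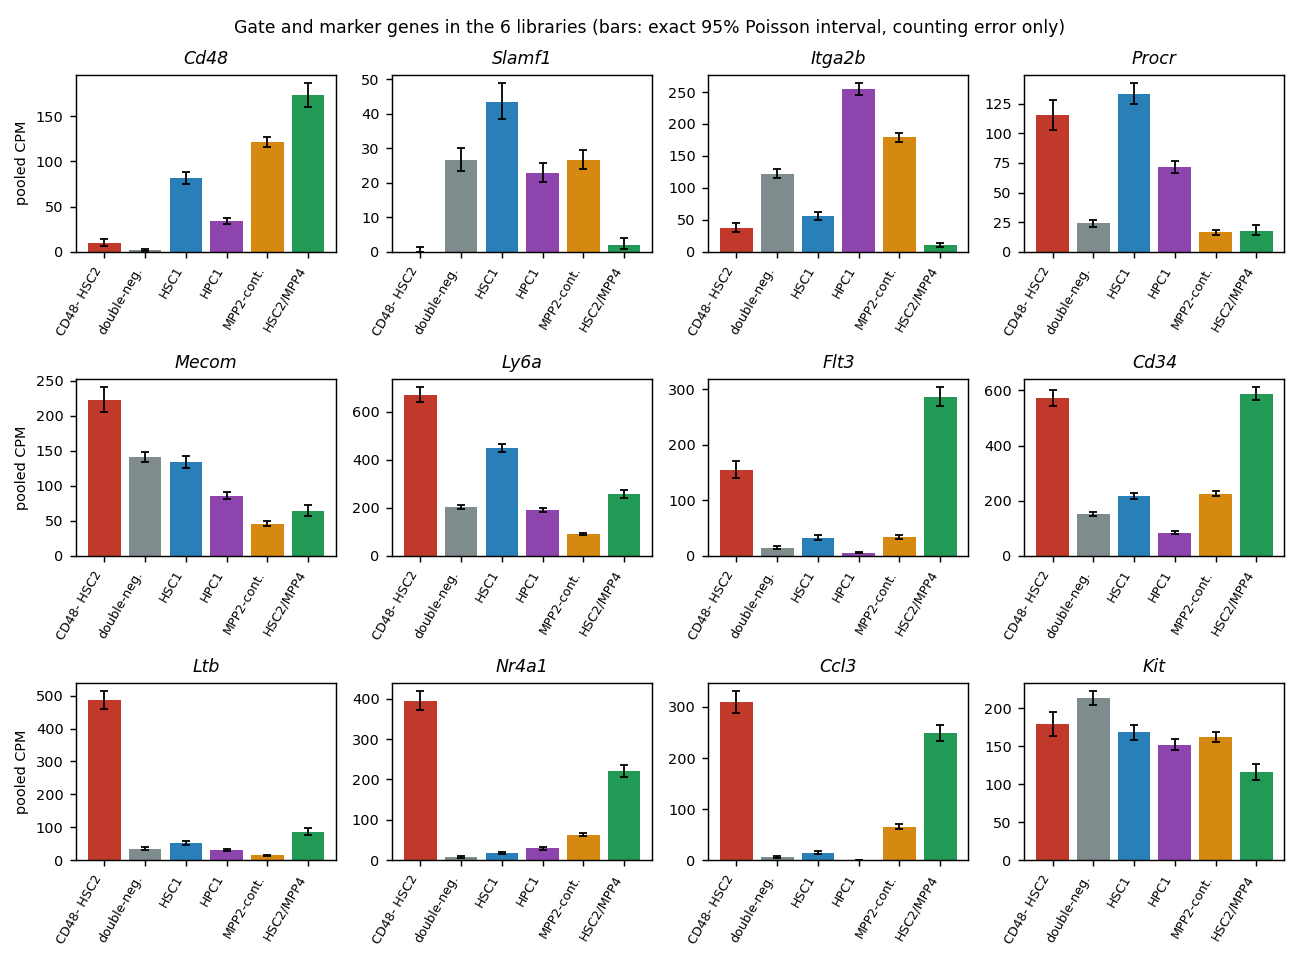
Pooled level (CPM, linear axes that start at 0) of 12 gate and marker genes in the 6 libraries, CD48- HSC2 at the left of each panel; error bars are exact 95% Poisson intervals of the pooled counts. CD48- HSC2 is low for Cd48 (9.36 CPM) and at 0 for Slamf1, is second to HSC1 for Procr, and is the highest library for Mecom, Ly6a, Ltb, Nr4a1 and Ccl3.

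Slamf1 and Flt3 differed between CD48- HSC2 and the 4 earlier libraries in opposite directions. Slamf1, which encodes CD150, a standard marker of long-term stem cells, had 0 counts in the 86 CD48- HSC2 cells, which allows a level of up to 1.08 CPM. It stood at 26.6 CPM in double-negative, 43.6 in HSC1, 22.9 in HPC1, 26.7 in MPP2-containing and 2.04 CPM in HSC2/MPP4, so that CD48- HSC2 was at least 40.4-fold lower than HSC1 and at least 21.2-fold lower than each of the other 3 earlier libraries. Among thinned cells, Slamf1 was counted in 0 of 66 CD48- HSC2 cells, which allows a share of cells with a count of up to 4.55% (3 of 66), and in 13.6% to 17.5% of cells of the 4 earlier libraries. Flt3 stood at 155.5 CPM (141.1 to 170.8) in CD48- HSC2, 14.97 in double-negative, 32.4 in HSC1, 5.84 in HPC1, 34.2 in MPP2-containing and 286.4 CPM (269.9 to 303.7) in HSC2/MPP4. It was counted in 45 of 66 thinned CD48- HSC2 cells (68.2%, 55.6% to 79.1%), against 77.8% in HSC2/MPP4 and 6.17% to 17.5% in the 4 earlier libraries. The intermediate level of Flt3 therefore came with a share of positive cells whose interval overlapped that of HSC2/MPP4.

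Cd34, a sialomucin lost from the most dormant adult mouse stem cells, stood at 573.3 CPM (545.4 to 602.1) in CD48- HSC2 and 587.4 CPM (563.7 to 611.9) in HSC2/MPP4, and at 83.4 to 226.1 CPM in the 4 earlier libraries. It was counted in 64 of 66 thinned CD48- HSC2 cells (97.0%). Ly6a, the gene of the stem cell antigen Sca-1, was highest in CD48- HSC2, at 671.9 CPM, against 204.3 in double-negative, 449.9 in HSC1, 190.7 in HPC1, 90.5 in MPP2-containing and 257.6 CPM in HSC2/MPP4. Kit, the stem cell factor receptor, differed less than 2-fold from every other library (log2 ratios -0.24 to 0.59). Itga2b, the megakaryocyte integrin CD41, stood at 37.1 CPM in CD48- HSC2, above HSC2/MPP4 (10.5) and below the other 4 (55.5 to 254.8 CPM).

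Mecom and Hlf, 2 transcription factors of stem cells, were highest in CD48- HSC2, while the stem cell list as a whole was mixed. Mecom, which encodes the zinc-finger factor EVI1, stood at 222.8 CPM (205.5 to 241.0) in CD48- HSC2, 141.5 in double-negative, 134.2 in HSC1, 86.2 in HPC1, 46.1 in MPP2-containing and 64.7 CPM in HSC2/MPP4. It was called against HPC1, MPP2-containing and HSC2/MPP4 (log2 ratios 1.27, 2.05 and 1.64), and not against double-negative or HSC1 (0.62 and 0.69). Hlf, a bZIP factor, stood at 399.4 CPM in CD48- HSC2, 170.3 in double-negative, 269.5 in HSC1, 131.6 in HPC1, 79.9 in MPP2-containing and 125.6 CPM in HSC2/MPP4. Neither level rested on a few cells, since the highest cell held 6.14% of the Mecom counts and 8.47% of the Hlf counts.

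Over the whole list of 30 stem cell genes, 7 were higher in CD48- HSC2 than in all 5 other libraries, a share near the 21.6% of all genes. Against HSC2/MPP4, 18 of the 30 were at least 2-fold higher and 0 lower (median log2 ratio 1.20), and against MPP2-containing 10 were higher and 2 lower (median 0.41). Over all 13023 genes, the shares at least 2-fold higher and lower were 3.12% and 1.8% against HSC2/MPP4, and 4.61% and 3.55% against MPP2-containing, and the median of all genes lay between 0.00 and 0.02 in every comparison. Against the 3 libraries with HSC1 or HPC1 as their main gates the list was mixed, with medians of -0.42 over double-negative (4 higher, 6 lower), -0.35 over HSC1 (1 higher, 8 lower) and -0.32 over HPC1 (5 higher, 6 lower), where 4.05%, 3.26% and 4.28% of all genes were higher and 2.56%, 2.61% and 3.35% lower. These shares over all genes are also the ones to set beside the 2-fold counts of the lists below. Summed over the stem cell list, the pooled level was 7832 CPM in CD48- HSC2, 8589 in HSC1, 6976 in double-negative and 7092 CPM in HPC1. By that sum CD48- HSC2 was thus above double-negative and HPC1, although the list medians over both were below 0. Mllt3, a chromatin reader that supports stem cell self-renewal, stood at 104.0 CPM in CD48- HSC2, 167.9 in double-negative, 281.4 in HSC1, 146.1 in HPC1, 56.4 in MPP2-containing and 20.6 CPM in HSC2/MPP4. Pdzk1ip1, a small membrane protein used as a stem cell reporter locus, was at 209.1 CPM in CD48- HSC2 and at least 2-fold higher in double-negative, HSC1 and HPC1 (443.0 to 474.4 CPM), with 207.1 in MPP2-containing and 36.4 CPM in HSC2/MPP4. CD48- HSC2 thus sat between the HSC1 library and HSC2/MPP4 for both. Nupr1, a stress-response regulator, had 0 counts in CD48- HSC2 and 13.1 to 67.4 CPM in the 4 earlier libraries, so that CD48- HSC2 was at least 12.1-fold lower than each of them. Against HSC2/MPP4, in the same deposit, Nupr1 was not called lower, so the gap is shown for the earlier libraries alone.

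Ltb, which encodes lymphotoxin beta, a membrane cytokine of the TNF family, was the member of the list that stood farthest apart. On chromosome 17 (35194439 to 35196320, plus strand), it reached 486.5 CPM (460.9 to 513.2) in CD48- HSC2, against 34.9 in double-negative, 51.9 in HSC1, 31.1 in HPC1, 14.8 in MPP2-containing and 86.6 CPM (77.7 to 96.4) in HSC2/MPP4. Every other library was thus more than 4-fold lower, with log2 ratios of 3.47, 3.0, 3.59, 4.32 and 2.36. Ltb was counted in 52 of 66 thinned CD48- HSC2 cells (78.8%, 67.0% to 87.9%), against 6.25% to 32.1% of the cells of the other 5 libraries. Over all 86 CD48- HSC2 cells the median cell stood at 273.8 CPM and the highest at 2521, and the highest cell gave 15.5% of the counts.

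**Figure D2:**
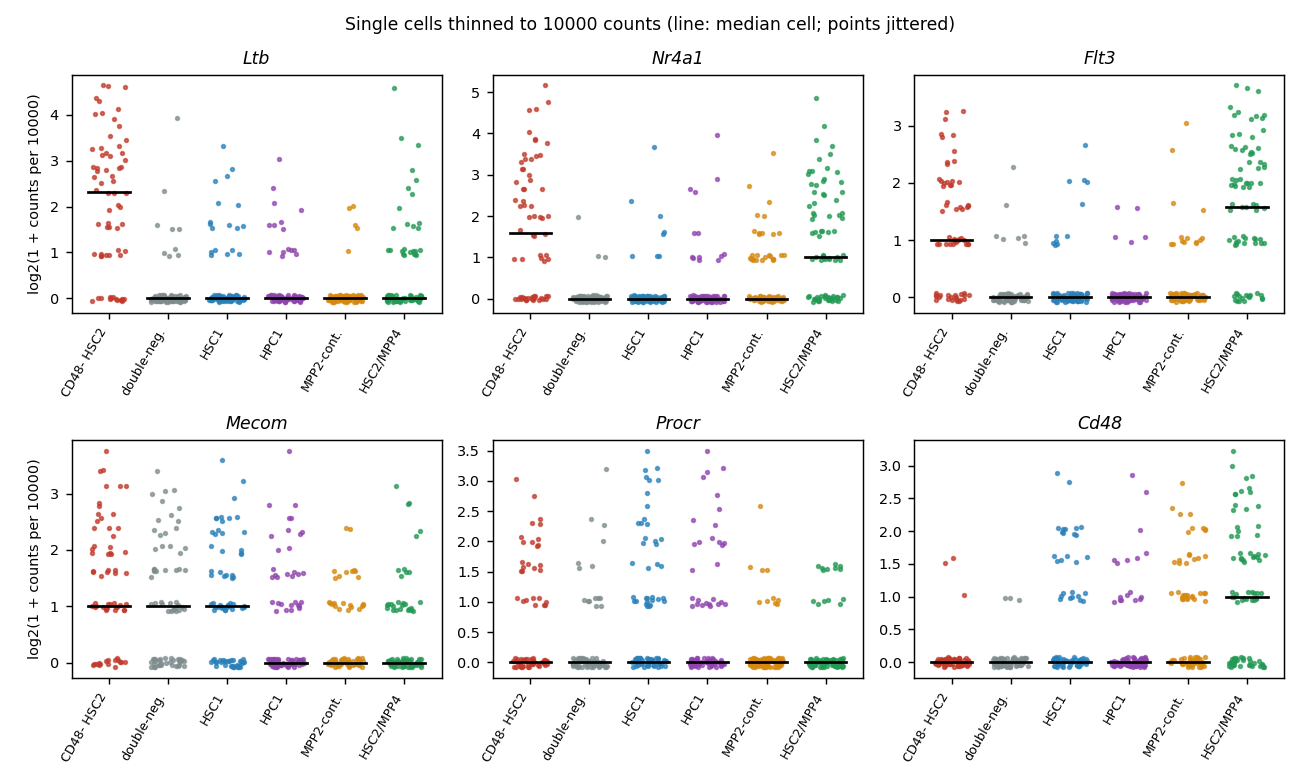
Each point is a cell thinned to 10000 counts; the vertical axis is log2(1 + counts per 10000), with points moved slightly in both directions so that they can be told apart, and the line is the median cell. Ltb was counted in 78.8%, Nr4a1 in 65.2% and Mecom in 75.8% of CD48- HSC2 cells, while Cd48 was counted in 4.55%.

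Immediate early genes, transcription factors and feedback phosphatases that cells switch on within minutes of a signal, were higher in CD48- HSC2 as a group. Of 23 recovered members of a list of 24, 17 were at least 2-fold higher in CD48- HSC2 than in double-negative, 15 than in HSC1, 15 than in HPC1, 14 than in MPP2-containing and 3 than in HSC2/MPP4, and 0 were at least 2-fold lower in any of the 5 comparisons. The list medians were 1.33, 1.55, 1.60, 1.06 and 0.47 on the log2 scale, in that order. CD48- HSC2 had the highest level of all 6 libraries in 15 of the 23, compared with the same 21.6% of all genes. The median CD48- HSC2 cell had a summed level of 8015 CPM over the list, the median HSC2/MPP4 cell 5845 CPM, and the median cell of the 4 earlier libraries 1523 to 3039 CPM. The step between the deposits is thus larger than the step between the 2 libraries of the same deposit, and its source was not tested.

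Nr4a1, an orphan nuclear receptor that holds stem cells in quiescence, stood at 394.4 CPM (371.4 to 418.5) in CD48- HSC2, 7.69 in double-negative, 17.3 in HSC1, 28.9 in HPC1, 62.9 in MPP2-containing and 221.4 CPM (207.0 to 236.7) in HSC2/MPP4. It was counted in 65.2% of thinned CD48- HSC2 cells and in 63.0% of HSC2/MPP4 cells, with overlapping intervals, and in 4.0% to 33.8% of cells elsewhere. The difference from HSC2/MPP4 thus lay in the level (log2 ratio 0.81, under 2-fold) more than in the share of cells. Fos, a subunit of the AP-1 transcription factor, stood at 2212 CPM in CD48- HSC2, 311.1 in double-negative, 344.2 in HSC1, 249.3 in HPC1, 1052 in MPP2-containing and 1591 CPM in HSC2/MPP4. Junb, its dimerization partner, stood at 628.3 CPM in CD48- HSC2, 109.9 in double-negative, 188.4 in HSC1, 78.2 in HPC1, 186.7 in MPP2-containing and 387.6 CPM in HSC2/MPP4. Klf6, a zinc-finger factor, and Zfp36, which destabilizes cytokine mRNAs, had log2 ratios of 1.60 to 3.17 over the 4 earlier libraries and of 0.87 and 0.20 over HSC2/MPP4. The 3 members called against HSC2/MPP4 were the phosphatase genes Dusp2 (1.59) and Dusp1 (1.12) and, at the threshold, the Nr4a1 paralog Nr4a2 (1.0).

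Because the immediate early genes moved together, the 250 bases before the transcription start of 3 of them are shown, from the RefSeq promoter table (GRCm38.p6), with TGACG or its reverse complement CGTCA in capitals, the core of the cyclic AMP response element. The intervals are chr15:101266596-101266845 for Nr4a1 (plus strand), chr12:85473640-85473889 for Fos (plus strand) and chr8:84978749-84978998 for Junb (minus strand), each printed 5′ to 3′ on the strand of the gene.
Nr4a1: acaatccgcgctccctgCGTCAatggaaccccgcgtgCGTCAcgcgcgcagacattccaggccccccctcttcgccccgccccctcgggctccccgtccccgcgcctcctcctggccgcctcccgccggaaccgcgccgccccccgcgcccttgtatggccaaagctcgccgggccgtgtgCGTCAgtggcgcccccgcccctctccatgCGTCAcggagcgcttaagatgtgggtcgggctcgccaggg
Fos: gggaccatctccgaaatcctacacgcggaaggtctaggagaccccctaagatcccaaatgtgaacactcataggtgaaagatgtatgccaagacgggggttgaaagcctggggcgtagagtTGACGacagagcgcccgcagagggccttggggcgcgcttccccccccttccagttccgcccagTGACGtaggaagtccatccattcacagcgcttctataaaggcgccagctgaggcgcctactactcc
Junb: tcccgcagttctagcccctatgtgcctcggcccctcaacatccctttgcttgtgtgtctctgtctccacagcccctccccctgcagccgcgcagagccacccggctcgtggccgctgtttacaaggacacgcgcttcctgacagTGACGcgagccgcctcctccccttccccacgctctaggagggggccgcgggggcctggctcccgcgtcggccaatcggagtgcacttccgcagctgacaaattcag
The Nr4a1 window held 4 matches, which began between 233 and 40 bases before the start, the Fos window 2 (129 and 66 bases before it) and the Junb window 1 (106 bases before it). Searched on both strands, the motif was present in 13 of the 21 list members with a promoter in the table (61.9%), and in 5347 of all 27025 genes (19.8%). These are matches of letters, and binding was not measured.

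The NF-kB response list, genes switched on by TNF-family and Toll-like receptor signals, was higher in CD48- HSC2 too, mainly against the 4 earlier libraries. Of its 20 genes, 6 were at least 2-fold higher than in double-negative, 7 than in HSC1, 8 than in HPC1, 7 than in MPP2-containing and 2 than in HSC2/MPP4, with 0 lower in each; the medians were 0.62, 0.60, 0.91, 0.84 and 0.39. For the mean of per-cell CPM, the median against HSC2/MPP4 was 0.17, with 1 gene higher and 1 lower. Ltb belongs to this list as well as to the stem cell list. Ccl3, which encodes the chemokine MIP-1 alpha, stood at 309.1 CPM (288.8 to 330.5) in CD48- HSC2, 5.67 in double-negative, 14.8 in HSC1, 0.436 in HPC1, 65.6 in MPP2-containing and 248.5 CPM (233.1 to 264.6) in HSC2/MPP4. It was counted in 36.4% of thinned CD48- HSC2 cells (24.9% to 49.1%) and in 49.4% of HSC2/MPP4 cells (38.1% to 60.7%), so that fewer cells carried it at a higher pooled level, with intervals that overlapped. Its neighbour in function, Ccl4, stood at 385.4 CPM in CD48- HSC2 and 601.7 CPM in HSC2/MPP4, and at 37.3 to 105.5 CPM in the earlier libraries. Tnfaip3, the feedback inhibitor A20, stood at 31.7 CPM in CD48- HSC2, against 11.98 in HSC2/MPP4 and 3.74 to 10.2 CPM in the other 4, and Nfkbiz, an atypical inhibitor protein, at 86.7 CPM against 53.3 and 4.27 to 14.7 CPM.

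**Figure D3:**
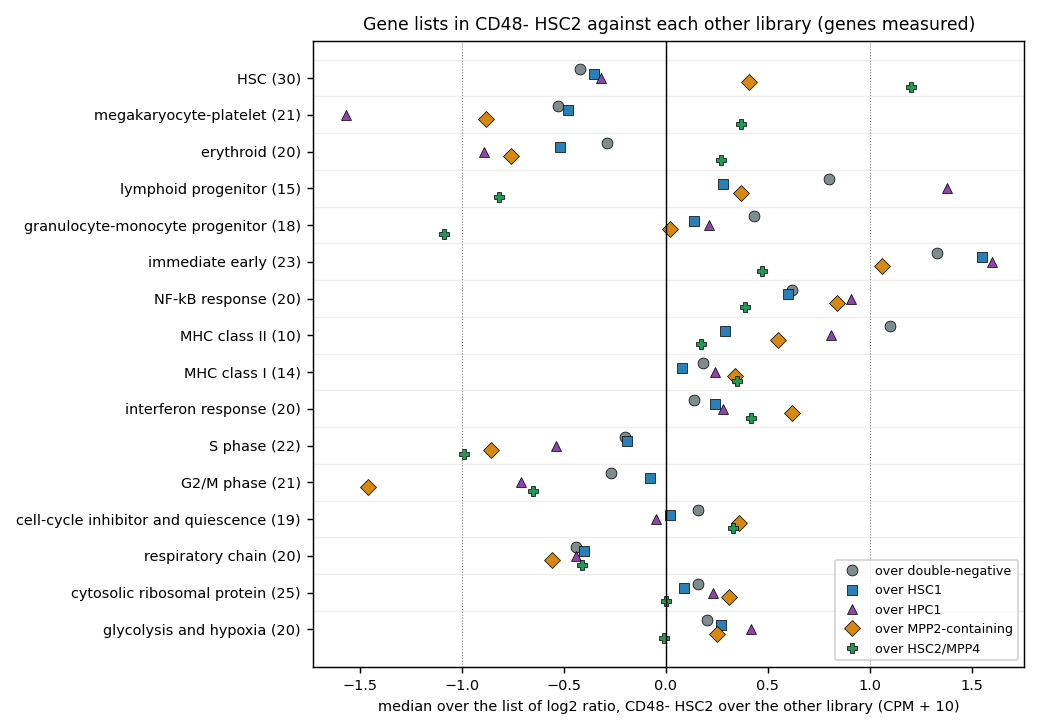
Median log2 ratio (CD48- HSC2 over each other library, CPM + 10) of 16 gene lists, 1 symbol per other library; the number of recovered genes follows each list's name, and dotted lines mark 2-fold. Immediate early genes lie right of 0 against all 5 libraries (0.47 to 1.60), the respiratory chain left of 0 against all 5 (-0.56 to -0.40), and the stem cell list changes side between HSC1 (-0.35) and HSC2/MPP4 (1.20).

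Megakaryocyte genes were lower in CD48- HSC2 than in the earlier libraries and higher than in HSC2/MPP4. Of 21 recovered megakaryocyte and platelet genes, 0 were at least 2-fold higher than in any of the 4 earlier libraries, while 9 were lower than in double-negative, 3 than in HSC1, 15 than in HPC1 and 9 than in MPP2-containing (medians -0.53, -0.48, -1.57 and -0.88). Against HSC2/MPP4 the list turned over, with 6 higher, 0 lower and a median of 0.37. Pf4, platelet factor 4, stood at 69.5 CPM in CD48- HSC2, 332.0 in double-negative, 102.9 in HSC1, 2709 in HPC1, 895.4 in MPP2-containing and 11.7 CPM in HSC2/MPP4. Gp9, a subunit of the platelet von Willebrand factor receptor, was at 44.3 CPM in CD48- HSC2, at 78.9 to 277.0 CPM in the earlier libraries and at 3.31 CPM in HSC2/MPP4. Vwf, which marks platelet-biased stem cells, had 9 counts in CD48- HSC2 (3.24 CPM), against 21.6 CPM in HSC1 and 64.3 CPM in HPC1.

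Gata1, the master factor of the erythroid and megakaryocytic lineages, was nearly absent at this depth. It had 3 counts in CD48- HSC2, all in 1 cell (1.08 CPM, 0.223 to 3.16), against 60.5 in double-negative, 55.3 in HSC1, 78.4 in HPC1, 78.6 in MPP2-containing and 12.5 CPM (9.24 to 16.5) in HSC2/MPP4. The level in CD48- HSC2 was 51.2-fold lower than in HSC1 (counting interval 17.4 to 249.6) and 11.6-fold lower than in HSC2/MPP4 (3.73 to 58.0). Gata2, its stem cell paralog, stood at 136.0 CPM in CD48- HSC2, between HSC2/MPP4 (31.3) and the other libraries (191.6 to 240.2 CPM). Over the 20 genes of the erythroid list, 5, 5, 0 and 5 were at least 2-fold higher than in double-negative, HSC1, HPC1 and MPP2-containing. In the same order 4, 3, 9 and 6 were lower, with medians of -0.29, -0.52, -0.89 and -0.76. Against HSC2/MPP4 6 were higher and 3 lower (median 0.27), so Gata1 did not stand for the list there. In CD48- HSC2, 1 cell held 46.3% of the list's summed counts. Apoe, the lipid carrier apolipoprotein E, divided the deposits, with 243.3 CPM in CD48- HSC2 and 94.8 CPM in HSC2/MPP4, against 1303 to 1619 CPM in the 4 earlier libraries.

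On the lymphoid side, the list's median log2 ratio was 0.28 to 1.38 over the 4 earlier libraries and below 0 over HSC2/MPP4. Of 15 recovered lymphoid progenitor genes, 7 were at least 2-fold higher than in double-negative, 1 than in HSC1, 9 than in HPC1 and 2 than in MPP2-containing, with 0 lower; against HSC2/MPP4 0 were higher and 4 lower, with a median of -0.82 (-0.67 when 0 counts are set to 3). Dntt, the terminal transferase of early lymphoid cells, stood at 25.9 CPM in CD48- HSC2 and 554.5 CPM in HSC2/MPP4, and 54.2% of its CD48- HSC2 counts came from 1 cell, without which the level was 12.1 CPM. Ighm, whose sterile transcripts appear in lymphoid-primed progenitors, stood at 41.4 CPM in CD48- HSC2 and 334.9 CPM in HSC2/MPP4, and Satb1, a chromatin organizer of lymphoid priming, at 32.0 and 86.4 CPM. Flt3, also on this list, was at least 2-fold higher than in each of the 4 earlier libraries (log2 ratios 1.90 to 3.38) and less than 2-fold below HSC2/MPP4 (-0.84).

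Granule genes of myeloid progenitors showed the widest gap within the deposit. Mpo, myeloperoxidase, stood at 28.4 CPM in CD48- HSC2, 14.8 in double-negative, 48.4 in HSC1, 48.2 in HPC1, 515.1 in MPP2-containing and 3368 CPM in HSC2/MPP4. Elane, neutrophil elastase, stood at 4.32 CPM in CD48- HSC2, 10.4 in double-negative, 19.3 in HSC1, 47.1 in HPC1, 437.8 in MPP2-containing and 2707 CPM in HSC2/MPP4, so that CD48- HSC2 was the lowest of the 6 libraries for Elane and above double-negative alone for Mpo. Of the 18 genes of the granulocyte and monocyte progenitor list, 1 was at least 2-fold higher and 9 lower than in HSC2/MPP4 (median -1.09). Against double-negative, HSC1, HPC1 and MPP2-containing 4, 2, 3 and 4 were higher and 1, 2, 4 and 4 lower, with medians of 0.43, 0.14, 0.21 and 0.02, which became -0.01, 0.07, -0.03 and -0.09 without the cells rich in neutrophil or hemoglobin genes. In CD48- HSC2, 1 cell held 34.3% of the summed counts of the list. In HSC2/MPP4, 1 cell held 49.8%. Summed over the list, the median cell stood at 1750 CPM in CD48- HSC2 and at 1962 CPM in HSC2/MPP4. The pooled sums of the same list were farther apart, at 2428 and 10299 CPM. Spi1, which encodes PU.1, ran against the granule genes, at 331.8 CPM in CD48- HSC2, 271.7 CPM in HSC2/MPP4 and 119.5 to 197.4 CPM in the 4 earlier libraries. Irf8, a monocyte and dendritic factor, stood at 11.2 CPM in CD48- HSC2 and 222.5 CPM in HSC2/MPP4.

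Genes of antigen presentation on MHC class II are normally high in dendritic and B cells and detectable in stem cells. Of 10 recovered members, 6 were at least 2-fold higher in CD48- HSC2 than in double-negative (median 1.10) and 4 than in HPC1 (0.81). Against MPP2-containing 2 were higher (0.55), and 0 were lower in any of these comparisons. Over all genes, 4.05%, 4.28% and 4.61% were at least 2-fold higher in the same order. Against HSC1 0 of the 10 differed 2-fold (median 0.29), and against HSC2/MPP4 0 were higher and 1 lower (0.17, and -0.61 for the mean of per-cell CPM). Cd74, the invariant chain, stood at 168.8 CPM in CD48- HSC2, 7.99 in double-negative, 83.7 in HSC1, 67.3 in HPC1, 68.3 in MPP2-containing and 123.6 CPM in HSC2/MPP4, with 29.0% of the CD48- HSC2 counts in 1 cell. B cell markers summed to 81.0 CPM in CD48- HSC2, with 4 of 9 at 0, and to 60.9 to 178.4 CPM elsewhere. Dendritic cell markers, of which 1 of 10 was at 0, summed to 518.6 CPM in CD48- HSC2 and 231.5 to 650.4 CPM in the other libraries, and their part in the class II levels was not tested.

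S phase genes were lower in CD48- HSC2 than in MPP2-containing and HSC2/MPP4, and differed little from HSC1. Of 22 S phase genes, 0 were at least 2-fold higher in any comparison and 1, 0, 5, 10 and 11 were lower than in double-negative, HSC1, HPC1, MPP2-containing and HSC2/MPP4, with medians of -0.20, -0.19, -0.54, -0.86 and -0.99. CD48- HSC2 was the lowest library in 11 of the 22, compared with 16.7% of all genes. Mcm5, a subunit of the replicative helicase, stood at 88.2 CPM in CD48- HSC2, 143.2 in double-negative, 104.3 in HSC1, 156.8 in HPC1, 213.7 in MPP2-containing and 236.2 CPM in HSC2/MPP4. Cdc45, which activates that helicase, stood at 20.2 CPM in CD48- HSC2, 27.3 to 75.04 CPM in the earlier libraries and 72.1 CPM in HSC2/MPP4. Cdk6, the kinase that drives stem cells out of quiescence, stood at 107.2 CPM (95.4 to 120.1) in CD48- HSC2, below every other library (220.7 to 447.9 CPM), with a log2 ratio of -0.98 to the nearest one, just inside the threshold.

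The G2/M list depended on a single cell. The deepest CD48- HSC2 cell, with 191041 counts, held 66.5% of the library's counts of the 21 genes. With it, the medians were -0.27, -0.08, -0.71, -1.46 and -0.65 against double-negative, HSC1, HPC1, MPP2-containing and HSC2/MPP4, and 1, 0, 7, 16 and 6 genes were at least 2-fold lower. Only against HSC1 was a gene higher (1 gene), and the pooled sum over the list was 1563 CPM in CD48- HSC2 and 1515 CPM in HSC1. Without the cell that held the most such counts in each library, the medians were -1.02, -0.77, -1.70, -2.38 and -1.85, and 12, 4, 19, 20 and 20 genes were lower. Ube2c, a ubiquitin-conjugating enzyme of mitosis, stood at 160.1 CPM in CD48- HSC2 with all cells and at 20.1 CPM without its highest cell. The list was at 0 in 26 of the 86 CD48- HSC2 cells, the shallowest library, and in 0 to 8 cells of each other one. In the median CD48- HSC2 cell it summed to 106.8 CPM, against 303.2 CPM in HSC2/MPP4 and 325.9 to 1563 CPM in the 4 earlier libraries.

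Most nuclear genes of the respiratory chain had a lower level in CD48- HSC2, by less than 2-fold. Of 20 genes, 17, 15, 17, 20 and 20 lay below double-negative, HSC1, HPC1, MPP2-containing and HSC2/MPP4. The list medians were -0.44, -0.40, -0.44, -0.56 and -0.41 in the same order, with 1, 0, 2, 5 and 1 genes at least 2-fold lower and 0 higher, where 2.56%, 2.61%, 3.35%, 3.55% and 1.8% of all genes were lower. CD48- HSC2 was the lowest library in 14 of the 20 and the highest in 0, compared with 16.7% and 21.6% of all genes. Ndufa4, a subunit of the cytochrome oxidase complex, stood at 775.9 CPM in CD48- HSC2, 1116 in double-negative, 1297 in HSC1, 1213 in HPC1, 1863 in MPP2-containing and 1445 CPM in HSC2/MPP4. Summed over the list, the median CD48- HSC2 cell stood at 7159 CPM, against 8780 in HSC2/MPP4 and 9138 to 11447 CPM in the other libraries. Ribosomal protein genes gave medians of 0.00 to 0.31, and interferon response genes of 0.14 to 0.62.

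**Figure D4:**
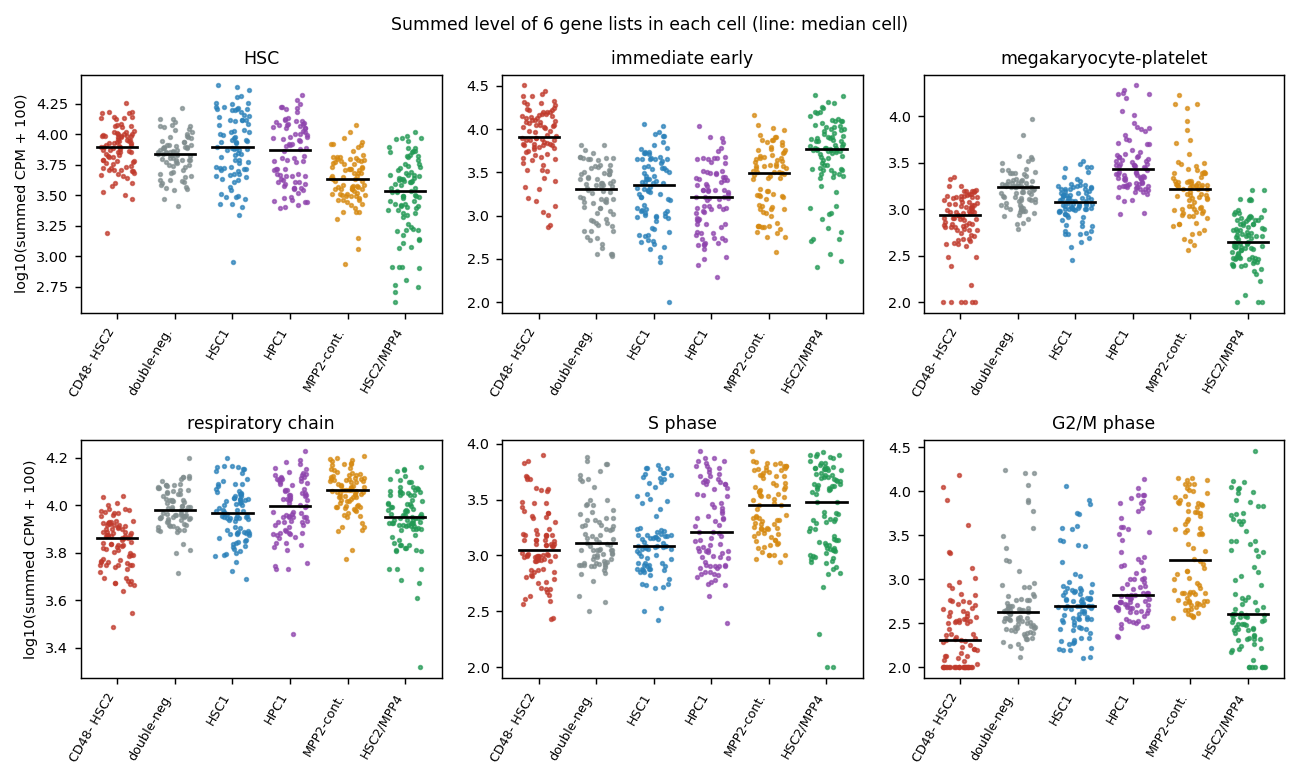
Summed level of 6 gene lists in every cell on a log10 axis (CPM + 100), with the median cell as a line and CD48- HSC2 at the left of each panel. In CD48- HSC2 the median cell is highest for immediate early genes (8015 CPM) and lowest for the respiratory chain (7159 CPM) and G2/M genes (106.8 CPM), and for G2/M genes the upper quartile of its cells (330.1 CPM) lies above the median cell of double-negative (325.9 CPM) and of HSC2/MPP4 (303.2 CPM). The median CD48- HSC2 cell is also just above that of HSC1 for the stem cell list (7790 and 7690 CPM). For S phase it is just below (1030 and 1115 CPM).

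Counted over all genes, CD48- HSC2 differed from HSC2/MPP4 in 337 of the 6177 genes found in at least 25% of the cells of either library (5.46%). Of these, 186 (3.01%) were at least 2-fold higher and 151 (2.44%) lower in CD48- HSC2, and with a trimmed-mean scaling 152 were higher and 196 lower. Against HSC1, 409 of 6731 genes (6.08%) differed, 210 higher (3.12%) and 199 lower (2.96%). Against double-negative, 557 of 7424 (7.5%) differed, 292 higher (3.93%) and 265 lower (3.57%). Against HPC1 it was 703 of 7826 (8.98%), 339 higher (4.33%) and 364 lower (4.65%). Against MPP2-containing, 869 of 8461 genes (10.3%) differed, 429 higher (5.07%) and 440 lower (5.2%), or 345 and 566 with the trimmed-mean scaling. Deeper libraries bring more genes into the comparison, so these counts are not on an equal footing. Between 42.1% and 51.8% of the called genes were called in the same direction under 6 other settings of scaling, depth and cell choice.

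Among the genes far from HSC2/MPP4 were Hacd4, a fatty acid elongation enzyme, at 198.6 CPM in CD48- HSC2, 18.4 in HSC2/MPP4 and 112.6 to 273.4 CPM in the other libraries, and Esam, an adhesion molecule of stem cells and endothelium, at 60.1 CPM in CD48- HSC2, 6.37 in HSC2/MPP4 and 59.9 to 124.6 CPM elsewhere. Cst7, a cystatin of cytotoxic and myeloid cells, went the other way, with 1.44 CPM in CD48- HSC2 and 188.1 CPM in HSC2/MPP4. Tespa1, a signalling adaptor known from T cells, marked the distance from double-negative, with 86.7 CPM in CD48- HSC2 and 0.607 CPM there, while HSC1 had 92.5 and HSC2/MPP4 191.9 CPM. Dusp5, a phosphatase of ERK kinases, stood at 84.2 CPM in CD48- HSC2 and 52.0 CPM in HSC2/MPP4, against 0.0871 to 5.59 CPM in the 4 earlier libraries.

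Genes beyond every other library were few: 25 of 8892 genes (0.281%) were at least 2-fold above all 5, and 12 (0.135%) at least 2-fold below all 5. Beyond the 4 earlier libraries alone there were 101 higher and 44 lower genes, and 75 and 30 of these lay within 2-fold of HSC2/MPP4. Of the 25, 6 were called under every one of the 6 other settings, among them Ltb, Hes1, Nkx2-3, Dusp2 and Hmox1. None of the 12 lower genes was.

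Hes1, a transcriptional repressor downstream of Notch, stood at 219.2 CPM (202.1 to 237.3) in CD48- HSC2, 14.97 in double-negative, 4.16 in HSC1, 12.3 in HPC1, 23.7 in MPP2-containing and 54.0 CPM in HSC2/MPP4. It was counted in 20 of 66 thinned CD48- HSC2 cells (30.3%), so that a pooled level above every other library came with a count in fewer than 1 thinned cell in 3. Nkx2-3, a homeobox factor best known from the vessels of spleen and gut, stood at 307.7 CPM in CD48- HSC2 and at 44.9 to 80.3 CPM in all 5 others. Dusp2, a nuclear phosphatase of MAP kinases, stood at 840.6 CPM in CD48- HSC2, 99.7 in double-negative, 244.2 in HSC1, 98.8 in HPC1, 78.4 in MPP2-containing and 272.2 CPM in HSC2/MPP4, and was counted in 86.4% of thinned CD48- HSC2 cells. For Hmox1, the heme-degrading enzyme heme oxygenase, the level of 127.8 CPM in CD48- HSC2 against 19.1 to 31.6 CPM elsewhere rested in part on 1 cell with 56.6% of the counts, and was 56.7 CPM without that cell.

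Some other genes above all 5 libraries lay nearer to the highest of those libraries. Rgs1, which dampens G protein signals from chemokine receptors, stood at 1685 CPM in CD48- HSC2, 804.5 CPM in HSC2/MPP4 and 170.4 to 318.2 CPM in the 4 earlier libraries. Tsc22d1, a leucine zipper factor induced by TGF-beta, stood at 948.2 CPM in CD48- HSC2, 381.2 CPM in HSC2/MPP4 and 133.2 to 170.7 CPM in the others. Il2rg, the common cytokine receptor chain, was at 163.4 CPM in CD48- HSC2 and at 29.2 to 76.2 CPM elsewhere, with a log2 ratio of 1.01 over HSC2/MPP4 that lies at the threshold. Ppp1r15a, also known as Gadd34, a phosphatase subunit that ends the integrated stress response, stood at 392.6 CPM in CD48- HSC2 and 117.3 to 180.3 CPM in the other 5. Of the remaining genes above all 5, 3 predicted genes and 1 named gene had over 76% of their counts in 1 cell.

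Below all 5 libraries stood Bcl2, the survival factor, at 21.6 CPM in CD48- HSC2 against 55.8 to 90.6 CPM, and Tpp1, a lysosomal peptidase, at 10.1 CPM against 30.3 to 64.2 CPM. The others were Gata1, named above, and low genes such as the histone gene Hist1h2ac, with 7 counts (2.52 CPM) in CD48- HSC2 and 20.6 to 51.7 CPM elsewhere, Esco2, a cohesin acetyltransferase of S phase, with 11 counts (3.96 CPM) against 18.3 to 100.4 CPM, and Psrc1, a spindle protein, with 15 counts (5.40 CPM) against 26.0 to 37.8 CPM.

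**Figure D5:**
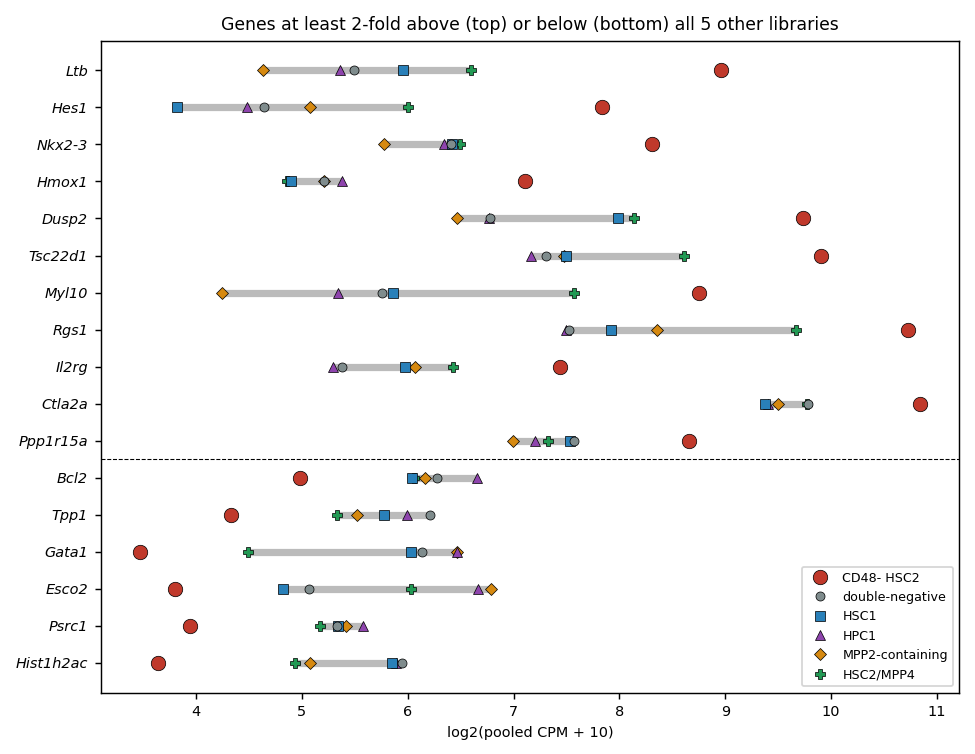
Pooled level, as log2(CPM + 10), of 11 genes at least 2-fold above and 6 genes at least 2-fold below all 5 other libraries; the large circle is CD48- HSC2, the other symbols are the other libraries, and the grey bar spans them. For Ltb, Hes1, Nkx2-3 and Dusp2 the gap to the nearest library is 1.59 to 2.36, and for Il2rg and Rgs1 it is 1.01 and 1.06.

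Within the library, the 6 marker genes were often counted in the same cells. Of Procr, Mecom, Ltb, Nr4a1, Ccl3 and Flt3, the 66 thinned cells had 1 in 3 cells, 2 in 10, 3 in 14, 4 in 22, 5 in 13 and all 6 in 4 cells, and no cell had none of them. Procr and Flt3 were counted together in 21 cells, Procr alone in 7, Flt3 alone in 24 and neither in 14 (Spearman correlation 0.15 over 66 cells, as a description). Mecom and Ltb were counted together in 42 cells. Markers this frequent overlap in many cells even when they are independent, so these counts cannot show whether separate sets of cells exist. The genes whose level followed Nr4a1 most closely across these cells were Junb (0.56) and Fos (0.55), both immediate early genes, and 4 of the 10 closest genes were the same in a second thinning. For Procr 3 of the 10 closest genes recurred in the second thinning, and the closest in the first, Lyl1 (0.48), was not among them.

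A few cells carried transcripts of other lineages. In 1 CD48- HSC2 cell, mature neutrophil genes took 32.2% of 57994 counts, and this cell held 95.8% of the library's counts of that list. The list summed to 7023 CPM in CD48- HSC2 with all cells and to 160.7 CPM without the neutrophil- and hemoglobin-rich cells, compared with 68.7 to 1199 CPM in the other libraries without theirs. Hemoglobin genes took 7.3% of the counts in a second cell and 1.34% in another. Of the other libraries, 4 held 1 to 3 cells rich in neutrophil genes, HPC1 held 3 rich in hemoglobin genes, and HSC1 held 0 of either kind. None of the counts of genes past 2-fold moved by more than 1.5 times without them. T and NK cell markers summed to 102.2 CPM in CD48- HSC2, with 3 of 10 at 0, and to 114.61 to 568.8 CPM in the other libraries. For mast cell markers the sums were 10.4 CPM, with 4 of 6 at 0, and 4.18 to 56.9 CPM. Endothelial and stromal markers, with 3 of 9 at 0, summed to 287.9 CPM in CD48- HSC2 and to 136.85 to 267.18 CPM in the other libraries. Without the neutrophil- and hemoglobin-rich cells the CD48- HSC2 sum was 266.0 CPM, against 267.18 CPM in HSC1. For that list the median CD48- HSC2 cell stood at 206.0 CPM, against 214.9 in HSC1, 210.0 in HPC1 and 82.48 to 177.1 CPM in the rest.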

How the data were processed

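Single cells were sorted into lysis buffer and processed with a modified Smart-seq2 protocol that enriches the 3' ends of transcripts, per the labels' protocols. TopHat, HTSeq and the mouse build mm10 (GRCm38) are named in the submitters' processing notes; tool versions were not given in the sources used here. Deposited values are not counts: per the values themselves, the authors' score for each gene is a log-normalized count from which 2 cell covariates were regressed, scaled to an SD of 1 over all 497 cells and capped at 10 (0.0762% of values). The table of CD48- HSC2 carries no gene names, and its rows were tied to those of the other 5 tables by order after 6 blank rows had been dropped. Over the 9901 uncapped genes the joint mean was then 0 within 1.1e-10, while a shift by 1 row gave a median distance of 0.023.

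The regression and scaling were undone for 13023 of 13278 genes. All 2027766 recovered values of up to 50 were whole numbers within 0.01, and the recovered counts made up 99.7% to 100.0% of each cell's total. For 8 capped values only a lower bound could be set, and 255 genes were not analysed here. The recovery was also tested on simulated data. The library of CD48- HSC2 shares 72 to 85 cell numbers with each other library, and 0 pairs of cells had identical counts. What the cell numbers stand for was not established here.

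Counts were pooled per library and divided by the library total. Genes found in at least 25% of the cells of either library entered the count of genes past 2-fold, with a pseudocount of 10 CPM. Lists of 24 kinds (421 genes) were described by counts and medians over recovered members. Members and lists were chosen with earlier results of these data known. Named genes were the 10 highest and 10 lowest ratios per comparison, the 15 farthest above and below all 5 libraries, list members, gate genes, and genes most like Procr or Nr4a1; not all of them are printed, and 1 is not reported here. Nr4a2 and the cells rich in other lineages were singled out after their values were seen. Python 3.11.15, numpy 2.4.6, scipy 1.17.1, pandas 2.3.3 and matplotlib 3.10.9 were used. Gene positions come from the GENCODE annotation of GRCm38 and promoters from RefSeq.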

Additional observations from a re-analysis of the deposited data

How the results depend on the processing

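No paired analysis was possible because there is 1 library per group and cells carry no pairing. With a pseudocount of 1 CPM the genes past 2-fold numbered 1071 against double-negative, 780 against HSC1, 1347 against HPC1, 1695 against MPP2-containing, 606 against HSC2/MPP4 and 173 beyond all 5, and with 50 CPM they numbered 104, 77, 159, 197, 75 and 12, since the pseudocount damps low genes. Without the filter on detection they numbered 862, 765 and 640 against double-negative, HSC1 and HSC2/MPP4. List medians of at least 2-fold numbered 12 of 120, and 31 and 4 with the smaller and the larger pseudocount. The mature neutrophil list had medians of 2.64 over double-negative and 3.73 over HSC1, and of -0.09 and -0.08 without the cells rich in neutrophil or hemoglobin genes, which was chosen after seeing the data. With cells thinned to 5000 counts, 55.7% had Mecom, 54.4% Ltb and 48.1% Flt3. Means of the deposited scores gave the other sign for 19 of 120 list medians, and the cause was not tested. Of 292 ratios past 2-fold of the genes followed here, 6 to 27 fell under 2-fold in each of the 6 alternatives of scaling, depth and cell choice and 0 changed sign; those that lay at the threshold, such as Il2rg, Ctla2a, Rgs1 and Gata1 over HSC2/MPP4, were lost most often. Depth limits all absences: 3 counts in CD48- HSC2 are 1.08 CPM.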
